A study of Mus musculus with 23 samples.

Results

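The genes described here are 8 members of the axis that links the RNA-binding protein LIN28 to the let-7 microRNAs: Lin28a, Lin28b, Trim71, Hmga1, Hmga2, Igf2bp1, Igf2bp2 and Igf2bp3. They were taken by name as 8 of 53607 rows of the deposited count table, and all 8 were among the 20372 genes that passed the filter on low counts. The set was proposed because Lin28a was already high in the naive medium in cultures labelled ERF knockout. The genes were thus chosen by measured levels of that contrast, which is given below as a description without a test.

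The series holds RNA-seq from 23 libraries of mouse embryonic stem cells (ESC) in 8 groups, which combine ERF status, RAS status and medium. Every culture carried H-Ras-/-, N-Ras-/- and the Ubiq-CreERT2 transgene, a tamoxifen-inducible Cre recombinase, on the Raslox/lox background. In the groups called RAS deleted, 4-hydroxytamoxifen (OHT) for 6 days had removed the remaining RAS, and in the groups called RAS present no OHT was given. The ERF gene was wild type or knocked out according to the labels. The medium was 2iL, that is N2B27 with the MEK inhibitor PD0325901, the GSK3 inhibitor CHIR99021 and LIF, which holds ESC in a naive state. The other medium was FA, that is N2B27 with 12 ng/ml FGF2 and 20 ng/ml Activin A for 48 hours, in which ESC turn into epiblast-like cells. Each group held 3 libraries, except that ERF wild type cultures with RAS present held 2 libraries in FA. The labels do not say whether a genotype is 1 clone or whether replicates are separate cultures, so p-values measure the spread between these libraries, which may be technical. OHT and the deletion cannot be told apart, because every deleted culture had the drug.

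RAS proteins relay growth factor signals to ERK. ERF, an ETS-family protein that represses transcription, is switched off when ERK phosphorylates it. LIN28A and LIN28B bind the precursors of let-7 and block their maturation, partly by recruiting uridylating enzymes, so cells with much LIN28 hold little mature let-7. In turn, let-7 represses messenger RNAs with matching sites in their 3' untranslated region (3' UTR), among them those of LIN28 itself, which makes a loop of mutual repression. In the early embryo Lin28a marks the passage from the naive to the formative epiblast.

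The mature let-7 family is shown because its shared seed defines the sites in the 8 genes. In the RefSeq set for GRCm38.p6, 9 distinct mature 5' sequences from 11 loci carried the same seed, bases 2 to 8, which is in capitals.
let-7a: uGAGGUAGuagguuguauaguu
let-7b: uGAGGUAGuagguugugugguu
let-7c: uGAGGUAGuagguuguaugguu
let-7d: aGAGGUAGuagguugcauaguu
let-7e: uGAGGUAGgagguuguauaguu
let-7f: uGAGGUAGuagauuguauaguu
let-7g: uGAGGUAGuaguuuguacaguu
let-7i: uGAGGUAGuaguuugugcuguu
miR-98: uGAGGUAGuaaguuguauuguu

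LIN28 recognises precursors partly through GGAG in their loop. Of 12 hairpins in the same set, 9 held GGAG between the mature arms, and Mirlet7b, Mirlet7c-2 and Mir98 did not. A hairpin of either kind is shown, with GGAG in the loop in capitals.
Mirlet7g (chr9:106178840-106178927, plus strand): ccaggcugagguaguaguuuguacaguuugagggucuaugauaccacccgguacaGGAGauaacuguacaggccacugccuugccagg
Mirlet7b (chr15:85707319-85707403, plus strand): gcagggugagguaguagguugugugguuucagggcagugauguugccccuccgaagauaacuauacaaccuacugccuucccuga

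Matches to the seed were then sought in the longest annotated 3' UTR of each gene in GENCODE M21 (GRCm38), on the transcribed strand. The 8-base match is CTACCTCA, and the 7-base match is CTACCTC without the final A. All 8 genes held at least 1 match of either length, against 9.02% of 21010 genes with an annotated 3' UTR. Hmga1 held only the shorter match, and the other 7 genes held the 8-base match, which 3.056% of all genes did. Long UTRs hold more matches by length alone. Among the 2802 genes with at least 3000 bases of 3' UTR, 9.101% held the 8-base match. The genes were chosen as let-7 targets, so these shares describe the choice. Lin28a had 2 matches, both of 8 bases, and Lin28b had 4, of which 1 had 8 bases. Trim71 had 4 matches of 8 bases, Hmga2 had 1 of its 4 at that length and Igf2bp1 had 3 of 4. Igf2bp2 and Igf2bp3 had 1 each. The sites of Lin28a and 1 site of each other gene are printed with the bases upstream of them, the match in capitals, because they show the letters that complement the seed. A match is a description and not a proven site of regulation.
Lin28a, first site (chr4:134005189-134005218, minus strand): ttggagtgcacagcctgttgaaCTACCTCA
Lin28a, second site (chr4:134004551-134004580, minus strand): atgctttgagatcgccacaaacCTACCTCA
Lin28b (chr10:45381022-45381051, minus strand): tcccttcacccgggcgggaagtCTACCTCA
Trim71 (chr9:114512472-114512501, minus strand): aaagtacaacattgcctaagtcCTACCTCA
Hmga1 (chr17:27563269-27563298, plus strand): ccatcttctcctctgttcacaaaCTACCTC
Hmga2 (chr10:120364224-120364253, minus strand): agggggcgccgacattcaatttCTACCTCA
Igf2bp1 (chr11:95961778-95961807, minus strand): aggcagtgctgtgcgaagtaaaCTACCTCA
Igf2bp2 (chr16:22059473-22059502, minus strand): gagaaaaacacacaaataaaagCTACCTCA
Igf2bp3 (chr6:49086787-49086816, minus strand): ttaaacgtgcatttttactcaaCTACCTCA

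**Figure D1:**
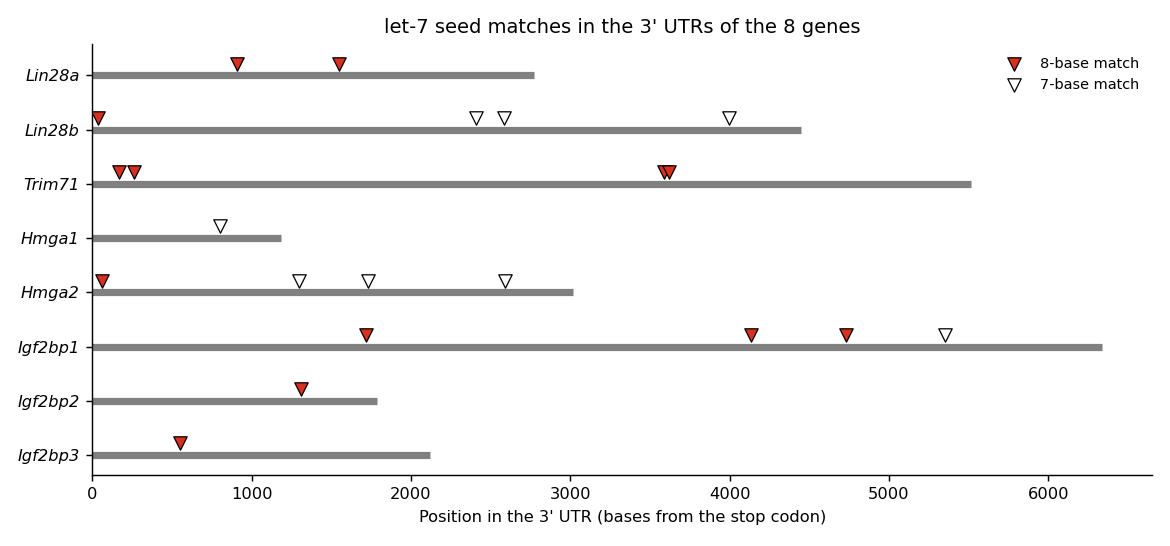
Positions of let-7 seed matches (triangles, filled for 8 bases and open for 7 bases) along the longest annotated 3' UTR of each gene (bars), in bases from the stop codon. Trim71 and Igf2bp1 have the longest of the 8 UTRs, 5512 and 6337 bases, and 4 matches each.

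Library totals, summed over all genes, ranged by less than 2-fold, and the smallest held 16221640 counts and the largest 29874207. The labelled cell type held at the level of markers: general and stage-specific pluripotency genes summed to at least 971 CPM, that is counts scaled to the library size after TMM normalization, in every group. Markers of other lineages summed to at most 5.75 CPM for mesoderm, 22.9 CPM for fibroblasts, 74.0 CPM for endoderm, 124 CPM for trophoblast and 132 CPM for neural cells. The Erf messenger was not lower in 2iL under the knockout label. It averaged 116 CPM ± 17.5 (SD, n = 3) in ERF knockout and 77.5 ± 7.66 (n = 3) in ERF wild type cultures with RAS present in 2iL. In FA with RAS present it averaged 57.4 ± 7.06 (n = 3) and 63.1 ± 9.40 (n = 2). These reads do not check the knockout, and ERF status is used as labelled. Replicate 1 of all 4 ERF wild type groups stood apart on chromosome 8, where its median gene lay 0.27 to 0.33 log2 units above the rest of its group. None of the 8 genes is on that chromosome. Replicate 1 of all 4 ERF knockout groups stood apart to a lesser degree on chromosome 11, by 0.058 to 0.16 log2 units. Igf2bp1 is on chromosome 11 and was highest in replicate 1 of each of these groups, and the part of the shift in its values was not tested.

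On a log scale of CPM, Lin28a moved over the widest range of the 8 genes. In 2iL it measured 3.71, 7.73 and 8.45 CPM in the 3 ERF wild type libraries with RAS present. After RAS deletion it measured 5.10, 6.79 and 4.74 CPM. These 2 groups overlapped and held the lowest levels in the series. With ERF knocked out, Lin28a measured 43.6, 52.4 and 55.0 CPM in 2iL when RAS was present, and 49.1, 67.2 and 67.2 CPM when RAS was deleted. All 6 of these libraries were above all 6 ERF wild type libraries in the same medium.

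In FA, Lin28a measured 305 and 367 CPM with ERF wild type and RAS present. After RAS deletion with ERF wild type it measured 71.4, 149 and 231 CPM, the widest spread between replicates of any group. With ERF knocked out it measured 289, 292 and 289 CPM when RAS was present and 459, 507 and 463 CPM when RAS was deleted. Every FA library was above every 2iL library, although the lowest, 71.4 CPM, lay close to the highest 2iL value of 67.2 CPM. In order of group means, neighbouring groups overlapped only among the 2 lowest and among the 2 ERF knockout groups in 2iL.

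Lin28b, the paralog of Lin28a, measured 2.69, 2.97 and 2.69 CPM with ERF wild type and RAS present, and 2.10, 1.52 and 1.55 CPM after RAS deletion. With ERF knocked out it measured 13.9, 14.3 and 11.7 CPM with RAS present and 10.0, 10.9 and 8.82 CPM with RAS deleted. As for Lin28a, the 6 ERF knockout libraries in 2iL were above the 6 ERF wild type ones.

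In FA, Lin28b measured 37.7 and 28.1 CPM with ERF wild type and RAS present, but 3.02, 3.81 and 4.92 CPM after RAS deletion. The ERF knockout cultures measured 40.1, 30.9 and 45.4 CPM with RAS present and 57.3, 50.7 and 45.4 CPM with RAS deleted. The ERF wild type cultures without RAS were thus the only FA group below the ERF knockout cultures in 2iL. Counts behind these values were small at the low end, 30 to 77 reads a library in ERF wild type 2iL cultures.

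**Figure D2:**
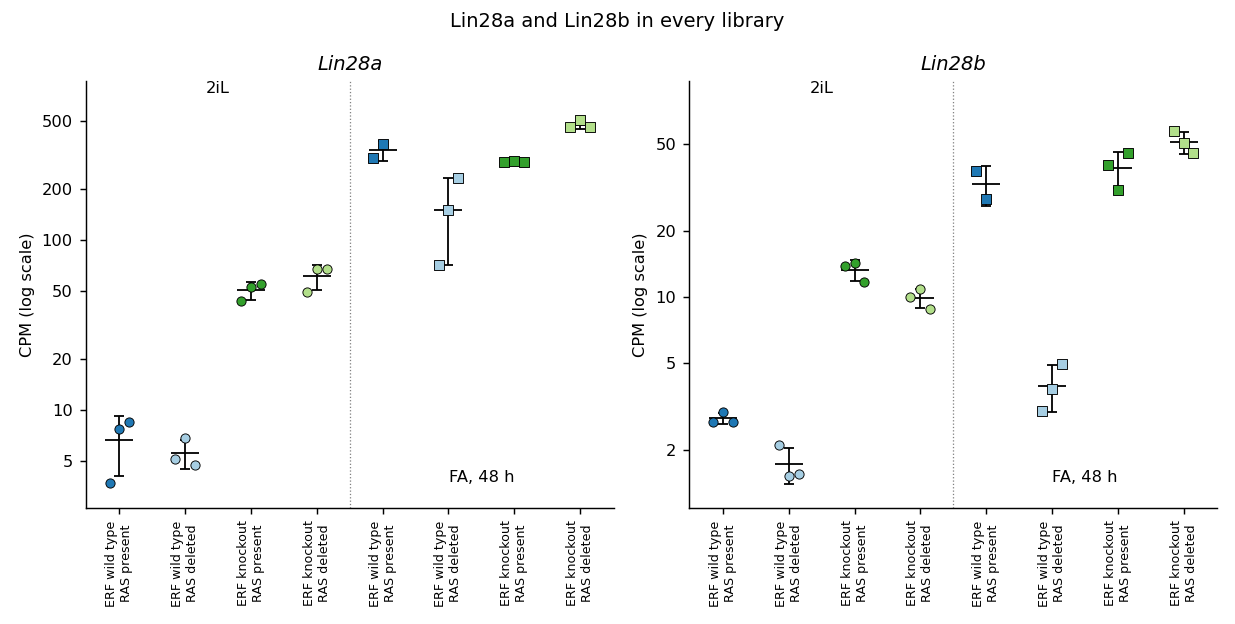
CPM of Lin28a and Lin28b (log axis) in each library; points are libraries (circles 2iL, squares FA), horizontal bars group means and error bars SD. Lin28a spans 3.71 to 507 CPM, and Lin28b in RAS-deleted ERF wild type cultures stays at 3.02 to 4.92 CPM in FA.

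The medium comparison asks what 48 hours of FA changed in each genotype. With ERF wild type and RAS present, Lin28a rose by 5.70 on the log2 scale (SE 0.40, 52.0-fold, adjusted p = 5.18e-09) and Lin28b by 3.57 (SE 0.19, 11.9-fold, adjusted p = 8.46e-13). Both were called, which here means an adjusted p under 0.05 and at least a 2-fold change. They were 2 of 8 genes called, where 24% of all genes tested were. The ERF wild type 2iL level of Lin28a is the other side of the contrast that chose the genes. The p-values of Lin28a against that level, here and below, are thus not free of the choice. With no minimum on the fold, 6 of 8 passed and all 6 rose, against 49.5% of all genes in either direction and 25.4% higher.

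The other genes of the set moved by less than 2-fold in those cultures. Trim71, a ubiquitin ligase and RNA-binding protein that represses messengers in early embryos, rose by 0.50 (SE 0.13, adjusted p = 0.00333). Hmga2, a chromatin architectural protein and a classical let-7 target, rose by 0.88 (SE 0.16, adjusted p = 0.000112), and its relative Hmga1 by 0.35 (SE 0.12, adjusted p = 0.0145). The Igf2bp genes encode RNA-binding proteins that stabilise messengers. Among them Igf2bp1 rose by 0.58 (SE 0.12, adjusted p = 0.000489). Igf2bp2 differed by -0.01 (SE 0.09) and Igf2bp3 by -0.13 (SE 0.09), and neither passed the test.

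FA again raised Lin28a in ERF wild type cultures with RAS deleted, by 4.76 (SE 0.38, 27.2-fold, adjusted p = 5.07e-08). Lin28b rose by 1.20 (SE 0.22, 2.30-fold, adjusted p = 0.000126). These were again 2 of 8 called, against 16.5% of all genes. Lin28b lost its call without the third FA library of that group, at 1.00, and with offsets for effective length, at 0.97. Hmga2 went the other way and fell by 0.39 (SE 0.15, adjusted p = 0.0447). Its 2 groups overlapped, and with single libraries left out the difference ranged from -0.55 to -0.22. Trim71 rose by 0.55, Igf2bp2 rose by 0.32 and Igf2bp3 fell by 0.21, each with an adjusted p under 0.05 and under 2-fold. In all 6 of 8 passed the p-value, against 43% of all genes.

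The difference between the 2 medium responses was tested with ERF wild type. Lin28b responded 2.37 log2 units less after RAS deletion (SE 0.30, adjusted p = 3.62e-06) and Hmga2 1.27 less (SE 0.22, adjusted p = 0.000218). These were 2 of 8 called, against 11.9% of all genes. Hmga1 also passed below 2-fold, at -0.55, which made 3 of 8 against 24.5% of all genes. For Lin28a the difference was -0.93 (SE 0.53, adjusted p = 0.234), which did not pass. Without the third FA library of the RAS-deleted group it was -1.39 and passed (adjusted p = 0.0341). With single libraries left out it ranged from -1.39 to -0.60.

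In the ERF knockout cultures the 2iL level of Lin28a was used to choose the genes, so its medium difference is a description: 2.53 log2 units with RAS present and 2.96 with RAS deleted. Lin28b rose by 1.55 (SE 0.15, adjusted p = 2.00e-08) with RAS present and by 2.37 (SE 0.16, adjusted p = 2.68e-11) with RAS deleted. Lin28b was the 1 of 7 genes tested here that was called in each, against 19.7% of all genes with RAS present and 24.9% with RAS deleted. Igf2bp1 rose by 0.58 and by 0.98 in these cultures, and Trim71 by 0.62 with RAS deleted. Hmga2 rose by 0.93 with RAS present, but differed by -0.08 (SE 0.15, adjusted p = 0.654) with RAS deleted. With no minimum on the fold 3 of 7 passed in each, against 46.9% of all genes with RAS present and 55.7% with RAS deleted. Between RAS deleted and present the Hmga2 response differed by -1.01 (SE 0.21, adjusted p = 0.00323) and was the 1 call of 7, with Lin28a again left out, against 4.59% of all genes. Lin28b (0.82) and Trim71 (0.56) passed below 2-fold, with larger responses after deletion, so that 3 of 7 passed against 13.1% of all genes. Leaving out any of 5 single libraries took the Hmga2 difference under 2-fold, to between -0.86 and -0.99, and its call was lost.

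RAS deletion was compared in each medium. In 2iL, where MEK was inhibited in all cultures, 0 of 8 genes with ERF wild type and 0 of 7 with ERF knocked out, where Lin28a is given as a description, passed in the edgeR model of all libraries or were called by DESeq2. Of all genes, 5.7% and 1.32% passed, and 1.2% and 0.211% were called. Without adjustment, p lay under 0.05 for 1 of 8 genes with ERF wild type and 3 of 7 with ERF knocked out. Lin28b was among them in both, with differences of -0.69 (SE 0.23, adjusted p = 0.0819) and -0.42 (SE 0.16, adjusted p = 0.212).

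The replicate numbers pair the libraries in both of these comparisons, and a fit of the 6 libraries compared with the number as a block gave other results below 2-fold. With ERF knocked out 5 of 7 genes then passed, against 19.9% of all genes tested. Lin28b fell by 0.44 (adjusted p = 0.0011). Hmga2 rose by 0.42 (adjusted p = 1.9e-05), Igf2bp2 by 0.31 (adjusted p = 5.0e-05), Igf2bp3 by 0.16 (adjusted p = 0.0209) and Hmga1 by 0.15 (adjusted p = 0.0213). The difference of Lin28a was 0.26. Without the block the same 6 libraries gave 2 of 7, Lin28b and Igf2bp2, against 5.76% of all genes. In ERF wild type cultures, with the block, Lin28b fell by 0.69 (adjusted p = 0.0477), the 1 gene of 8 that passed, against 16.5% of all genes.

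In FA with ERF wild type, RAS deletion lowered 3 of the 8 genes past the call, against 17.3% of all genes in either direction and 8.33% lower. With no minimum on the fold 5 of 8 passed, against 41.3% of all genes. Lin28b fell by 3.06 (SE 0.18, 8.34-fold, adjusted p = 9.79e-12). Hmga2 fell by 1.36 (SE 0.16, 2.57-fold, adjusted p = 8.61e-07), and its libraries measured 54.6 and 64.2 CPM with RAS present and 28.3, 23.4 and 17.7 CPM with RAS deleted. Lin28a fell by 1.16 (SE 0.33, 2.23-fold, adjusted p = 0.0098). Hmga1 fell by 0.65 (SE 0.12, adjusted p = 7.80e-05), while Igf2bp2 rose by 0.40 (SE 0.09, adjusted p = 0.00133). Trim71 differed by 0.04 (SE 0.13), so the genes did not all move together.

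The call of Lin28a in that comparison rested on few libraries. Without the first deleted library, at 71.4 CPM, the difference was -0.82 (adjusted p = 0.0136), and without the second RAS-present library the adjusted p was 0.0822. With only those 5 libraries in the model the adjusted p was 0.175.

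In FA with ERF knocked out, RAS deletion gave 0 calls among the 8 genes by edgeR and by DESeq2, against 6.88% of all genes. With no minimum on the fold 6 of 8 passed, against 26.4% of all genes, and 8 had an unadjusted p under 0.05. Lin28b rose by 0.40, Trim71 by 0.46, Igf2bp1 by 0.51, Igf2bp2 by 0.40 and Igf2bp3 by 0.36, and Hmga2 fell by 0.58. Lin28a differed by 0.72 (SE 0.30, adjusted p = 0.0891) and Hmga1 by 0.24 (adjusted p = 0.0866). In an edgeR fit of these 6 libraries alone, where 36.7% of all genes passed, Lin28a and Hmga1 did so (adjusted p = 4.2e-06 and 0.0211) and Lin28b did not (adjusted p = 0.110).

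The RAS effects in FA differed between the ERF backgrounds for several of the genes. The difference was 3.46 log2 units for Lin28b (SE 0.23, adjusted p = 4.65e-10) and 1.87 for Lin28a (SE 0.44, adjusted p = 0.00471), 2 of 8 called against 13.7% of all genes. Hmga1 (0.89), Hmga2 (0.78), Igf2bp1 (0.79) and Igf2bp3 (0.53) passed the p-value below 2-fold, in the same direction, 6 of 8 in all against 28% of all genes. Igf2bp2 showed -0.00 (SE 0.12), the same rise of 0.40 in both backgrounds.

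ERF status was compared in each medium. In 2iL, the contrast that chose the genes, Lin28a was 2.96 log2 units higher in ERF knockout cultures with RAS present and 3.46 higher with RAS deleted. Lin28b was 2.26 and 2.53 higher. The other 6 genes differed by less than 1 log2 unit, from -0.26 to 0.41 with RAS present and from -0.31 to 0.67 with RAS deleted. Thus 2 of 8 genes differed by more than 2-fold in each, beside 9.72% and 13% of all genes called, from which nothing is read. In FA with RAS present 0 of 8 genes passed in edgeR or were called by DESeq2, 2 had an unadjusted p under 0.05, and of all genes 9.78% passed and 2.36% were called. There Lin28a differed by -0.21 (SE 0.33, adjusted p = 0.746). In FA with RAS deleted, Lin28b was 3.69 higher (SE 0.17, 12.9-fold, adjusted p = 2.70e-13) and Lin28a 1.66 higher (SE 0.30, 3.16-fold, adjusted p = 0.000334), 2 of 8 called against 16.6% of all genes. Hmga1 (0.87), Hmga2 (0.66), Igf2bp1 (0.53) and Igf2bp3 (0.43) were also higher below 2-fold, 6 of 8 in all against 42.8% of all genes. These comparisons share groups with the RAS and medium comparisons and are not independent of them.

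**Figure D3:**
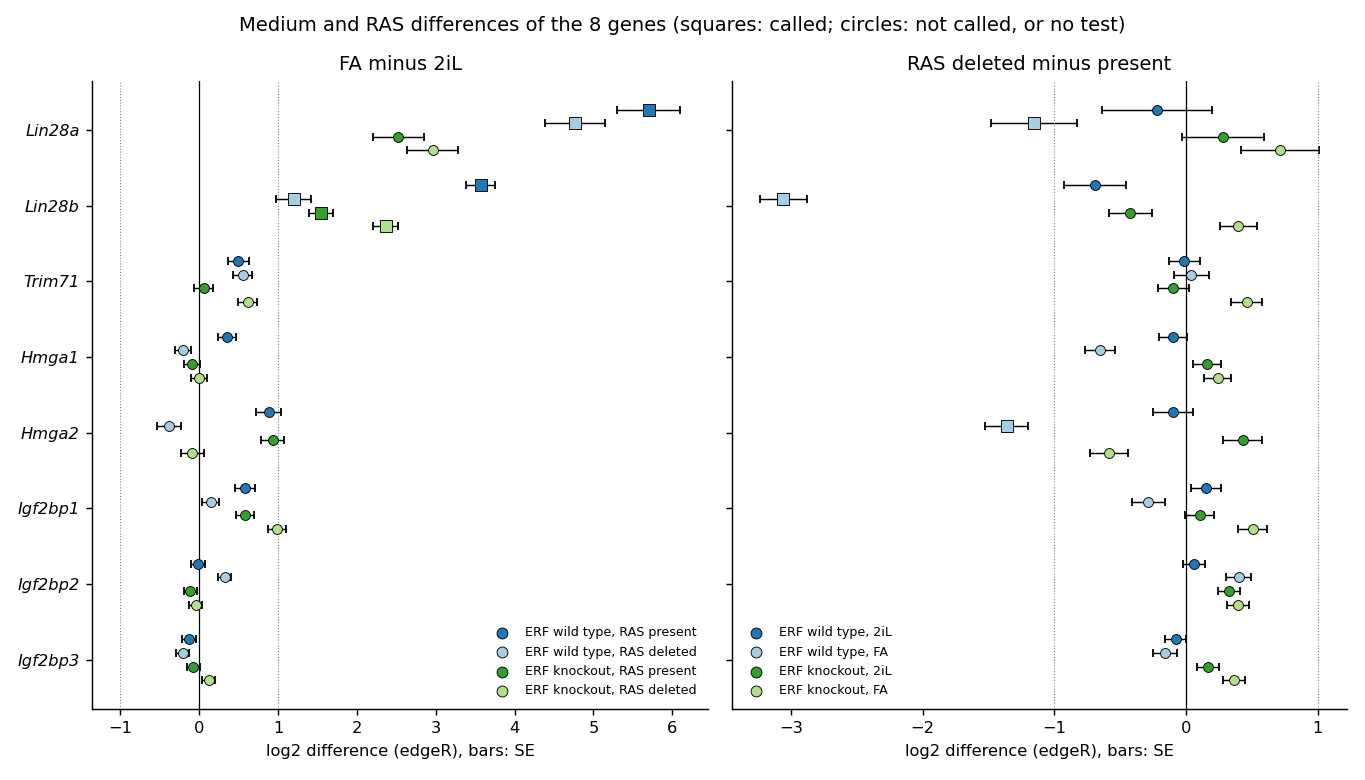
Fitted log2 differences of the 8 genes between FA and 2iL (left) and between RAS deleted and present (right), with SE as bars; squares are called, circles were not called or carry no test (Lin28a in ERF knockout cultures, on the left and for 2iL on the right). Lin28a and Lin28b take the highest values on the left, from 1.20 to 5.70, though the SE bar of Lin28b at 1.20 reaches those of Igf2bp1 and Hmga2 at their highest, and the lowest are Lin28b (-3.06), Hmga2 (-1.36) and Lin28a (-1.16), all on the right.

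Markers of the naive and epiblast states moved with Lin28a in the cultures where its replicates spread most. In ERF wild type cultures with RAS deleted in FA, the 5 naive markers (Nanog, Zfp42, Esrrb, Klf4 and Tfcp2l1) summed to 1548, 1210 and 999 CPM in the libraries where Lin28a was 71.4, 149 and 231 CPM. The 4 epiblast markers (Fgf5, Otx2, Pou3f1 and Dnmt3b) summed to 102, 179 and 290 CPM in the same libraries. In the other FA groups the naive sum ran from 169 to 269 CPM and the epiblast sum from 343 to 619 CPM. Dnmt3b, a DNA methyltransferase, made up most of the epiblast sum. Otx2, a transcription factor, went the other way and averaged 52.1 CPM ± 15.6 (SD, n = 3) in these cultures against 19.5 to 32.9 CPM in the other FA groups. The 2iL groups ran from 2267 to 2927 CPM for naive markers, and Fgf5 was at 0 in 3 of those 12 libraries, all ERF knockout, and at 1 to 4 counts in the others. In the ERF knockout cultures in 2iL, where Lin28a was 43.6 to 67.2 CPM, the epiblast sum was 43.0 to 51.1 CPM, below or within the 43.4 to 72.5 CPM of ERF wild type cultures. Their naive sum was 2267 to 2732 CPM, against 2537 to 2927 CPM with ERF wild type. As means of log2(CPM + 1), both lists were lower in every ERF knockout library in 2iL than in any ERF wild type one. Naive markers gave 8.56 to 8.72 against 8.74 to 8.92, and epiblast markers 1.97 to 2.17 against 2.45 to 2.68. In bulk RNA, fewer cells of a type and less RNA per cell cannot be told apart, and the part of cell state in the Lin28a differences was not tested. Neural markers summed to 128 to 132 CPM in ERF knockout, RAS-deleted cultures in FA and to 47.4 to 72.9 CPM in the other FA groups, and their part was not tested either.

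**Figure D4:**
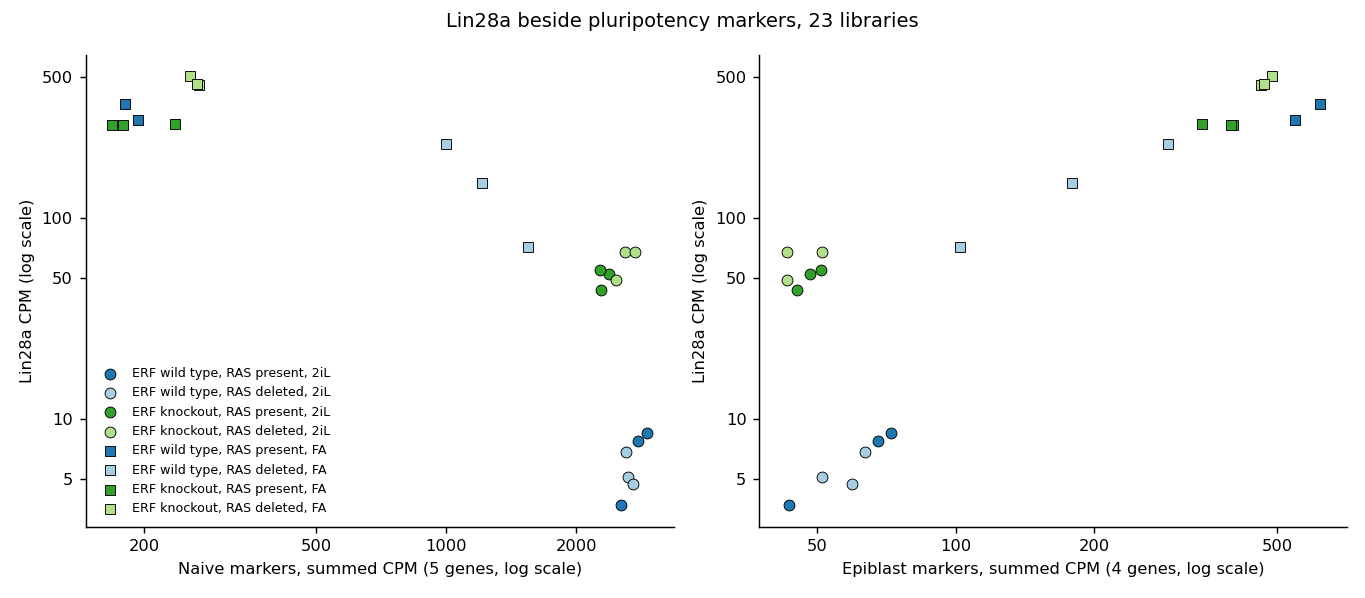
Lin28a CPM in each of 23 libraries against the summed CPM of 5 naive markers (left) and 4 epiblast markers (right), all axes logarithmic. The 3 FA libraries with ERF wild type and RAS deleted lie between the 2iL and the other FA libraries. The 6 ERF knockout libraries in 2iL lie above the ERF wild type ones in Lin28a. Their naive sums run from 2267 to 2732 CPM, against 2537 to 2927 CPM with ERF wild type.

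The other 6 genes were expressed in all groups. Trim71 ranged from 259.5 to 571 CPM over all libraries and Igf2bp1 from 435 to 1010 CPM. Igf2bp1 measured 1010, 991 and 937 CPM in ERF knockout, RAS-deleted cultures in FA, above every other library. Hmga1 ranged from 50.7 to 116 CPM, and its 2 lowest libraries were in ERF wild type cultures with RAS deleted in FA, which measured 50.7, 56.5 and 71.7 CPM. Hmga2 ranged from 17.7 to 64.2 CPM and reached over 50 CPM in the RAS-present FA libraries of both ERF backgrounds, 54.6, 64.2, 54.5, 52.1 and 57.9 CPM, and in no other library. Endoderm markers were also highest in those libraries. The 7 markers summed to 43.9 to 74.0 CPM with ERF wild type and 49.9 to 55.4 CPM with ERF knocked out, against 5.17 to 14.6 CPM in the RAS-deleted FA libraries and 7.69 to 37.9 CPM in 2iL. Their part in the Hmga2 differences was not tested. Igf2bp2 ranged from 73.2 to 117 CPM and Igf2bp3 from 80.1 to 123 CPM, and most groups of both overlapped with their neighbours in order of mean.

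Hmga1 has a near-identical copy, Hmga1b, which held 158 CPM ± 2.13 (SD, n = 3) in ERF wild type cultures with RAS present, grown in 2iL, beside 73.5 CPM for Hmga1. How reads were shared between the copies is uncertain. With both summed, in an alternative added after the data were seen, the FA difference of ERF knockout and RAS-deleted cultures turned from -0.00 to 0.26 (adjusted p = 0.0291), and the RAS by ERF difference in FA reached 1.03.

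**Figure D5:**
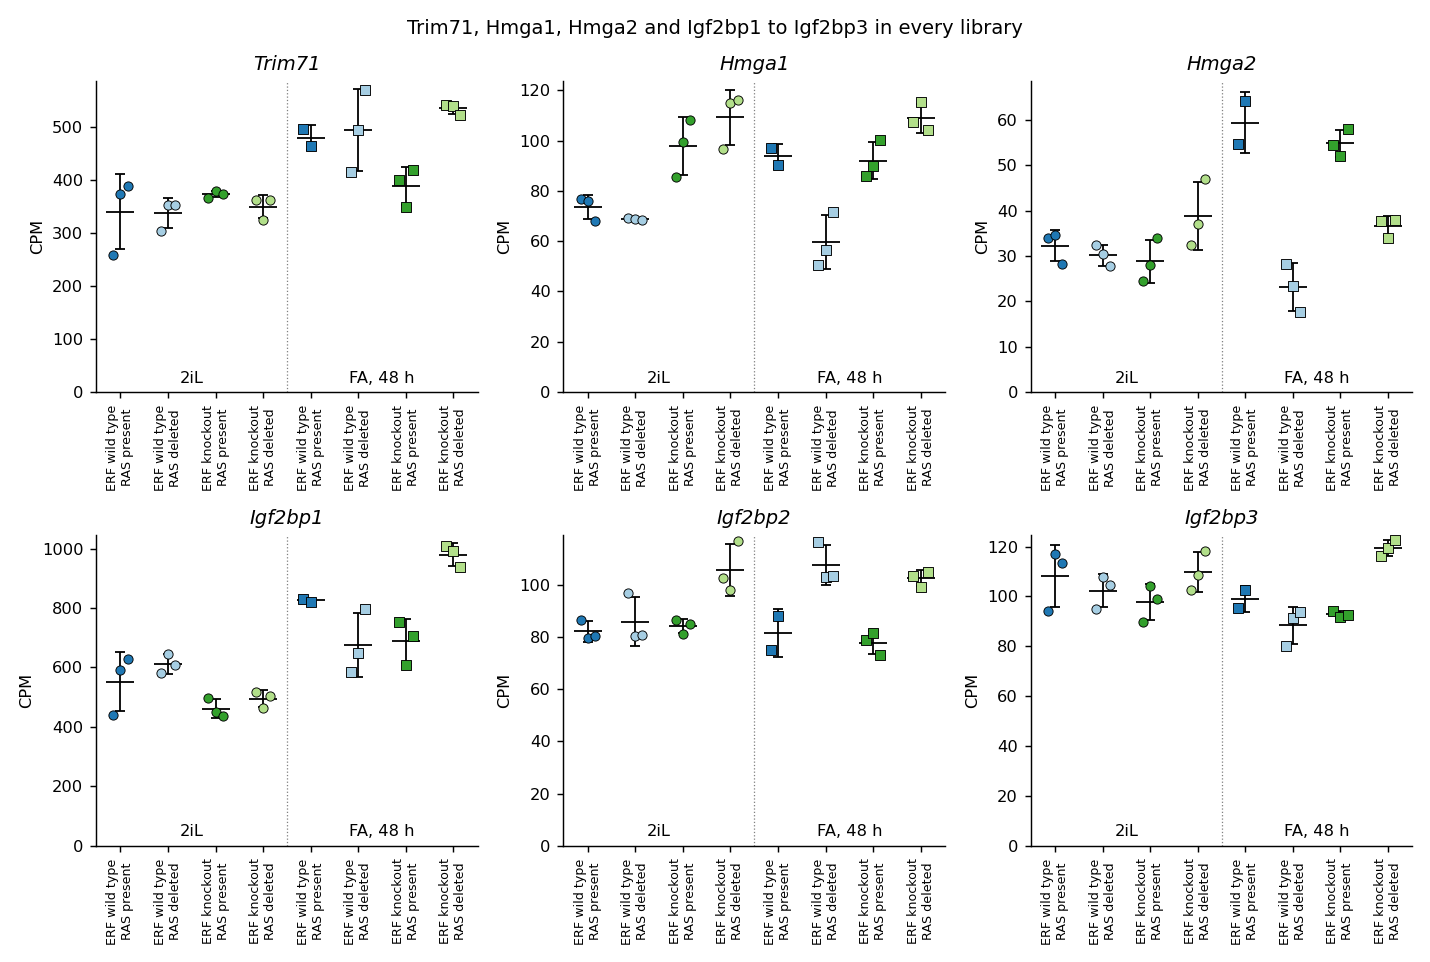
CPM of Trim71, Hmga1, Hmga2 and the 3 Igf2bp genes in each library, with group means (horizontal bars) and SD, on axes that start at 0. Hmga2 exceeds 50 CPM in the 5 RAS-present FA libraries, and Igf2bp1 peaks at 937 to 1010 CPM in ERF knockout, RAS-deleted cultures in FA.

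Levels can be set against each other between genes only per length, for which the deposited TPM, which are scaled for transcript length and library total, were averaged. With ERF wild type and RAS present, Lin28a went from 2.34 TPM ± 1.10 (SD, n = 3) in 2iL to 103 ± 1.54 (n = 2) in FA. Lin28b went from 0.78 TPM ± 0.16 to 7.05 ± 2.11. In 2iL, Lin28a was thus below Igf2bp1 at 118 TPM ± 33.8, Hmga1 at 75.4 ± 6.16 and Trim71 at 34.5 ± 8.87. In FA only Igf2bp1 was higher on average than Lin28a, at 162 TPM ± 26.3, and Hmga1, at 89.3 ± 15.8, differed from it by less than its spread. With ERF knocked out, Lin28a in 2iL was at 13.6 TPM ± 0.93 with RAS present and 15.5 ± 2.54 with RAS deleted.

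The let-7 side of the axis was hardly visible in these libraries, which do not capture mature microRNAs. Of 12 rows for let-7 and Mir98 precursors, 7 had 0 counts in all 23 libraries and the highest count of any row in a library was 4. None of 19 rows, these 12 with Mir99a, Mir99b, Mir100, Mir125a, Mir125b-1, Mir125b-2 and the transcript Mir99ahg, passed the filter on low counts. Genes with an 8-base let-7 match in the 3' UTR were counted in their place as a description. Of 559 such genes tested, which include 7 of the 8, 24% were called between FA and 2iL with ERF wild type and RAS present, equal to the 24% of all genes. Of them 72 rose and 62 fell, 12.9% and 11.1% against 13.2% and 10.8% of all genes. Their median difference was 0.09 log2 units, against 0.03 over all genes. After RAS deletion in FA with ERF wild type 15.9% were called, against 17.3% of all genes, with a median of -0.03 against 0.00. These were 36 higher and 53 lower, 6.44% and 9.48% against 8.93% and 8.33% of all genes, and the lean was not tested. The 14888 tested genes of the same annotation without such a match also had a median of -0.03. Of them 9.09% were higher and 9.63% lower, so the share that fell was alike with and without a match. In ERF knockout against wild type cultures in FA with RAS deleted 16.3% were called, against 16.6% of all genes, with a median of 0.04 against 0.01.

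Genes that make, load or degrade let-7 were described from a list of 19, all tested, and rises and falls are counted where called. In FA with RAS present, 1 rose and 3 fell in ERF wild type cultures, 21.1% against 24% of all genes, and the median of the list was 0.16 against 0.03 over all genes. Ago1, an Argonaute protein that carries microRNAs, rose by 1.10 (SE 0.11), while Ago2, the Argonaute that cleaves targets, fell by 1.17 (SE 0.08) and Ago4 fell by 1.14 (SE 0.29). Trim25, an RNA-binding ubiquitin ligase reported as a cofactor of let-7 uridylation, fell by 1.91 (SE 0.14). Trim25 also fell by 1.81 and 1.57 in the ERF knockout cultures with RAS present and deleted, and was 1.05 higher after RAS deletion in FA with ERF wild type. In ERF wild type cultures with RAS deleted, 0 of 19 were called for medium by edgeR or DESeq2, against 16.5% of all genes, while 13 had an unadjusted p under 0.05. In ERF knockout cultures, 1 rose and 2 fell with RAS present, 15.8% against 19.7%, and 3 rose and 2 fell with RAS deleted, 26.3% against 24.9%. Dis3l2, the exonuclease that degrades uridylated let-7 precursors, fell by 1.02 and 1.39 in these cultures, from averages of 35.4 and 38.0 CPM in 2iL. In ERF wild type cultures it averaged 21.5 CPM with RAS present and 18.2 CPM with RAS deleted in 2iL. In FA the averages were 17.4 and 14.5 CPM with ERF knocked out and 13.9 and 14.3 CPM with ERF wild type. In ERF knockout cultures with RAS deleted, Tut4, the enzyme LIN28A recruits for uridylation, rose by 1.14 (SE 0.08). Dgcr8, the partner of Drosha, rose there by 1.32 (SE 0.12). The largest rise there was that of Ago1, from an average of 48.8 CPM in 2iL to 172 CPM in FA. With RAS present Ago1 went from 49.0 to 131 CPM. Every log2 difference of a named gene in this account had an adjusted p under 0.05 by edgeR.

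A second list held 20 other genes known as let-7 targets, and all were tested. In ERF wild type cultures 5 rose and 2 fell in FA with RAS present, 35% against 24% of all genes, with a list median of 0.20. With RAS deleted 4 rose and 1 fell, 25% against 16.5%. In ERF knockout cultures 3 rose and 2 fell with RAS present, 25% against 19.7%, and 5 rose and 2 fell with RAS deleted, 35% against 24.9%. Thbs1, a matrix glycoprotein, rose by 4.99 to 6.37 in all 4 genotypes. Cdk6, a kinase of the G1 phase, rose by 1.09 in FA with RAS present and fell by 1.22 with RAS deleted in ERF wild type cultures, a difference of -2.31 (SE 0.14, adjusted p = 6.30e-11). In FA it was 1.90 lower after RAS deletion with ERF wild type, the direction of Lin28b and Hmga2. Mycn, a transcription factor of the MYC family, went the opposite way there and was 1.82 higher after deletion (SE 0.13), as with ERF knocked out at 1.77 higher (SE 0.11). Ccnd1 and Ccnd2, cyclins that partner CDK6, were 1.10 and 2.03 higher after deletion with ERF wild type, and both spread widely within a group. The 2 Ccnd1 libraries with RAS present held 27.0 and 69.5 CPM against 92.8 to 123 CPM after deletion, and the Ccnd2 libraries of the deleted group ran from 13.1 to 129 CPM. All values named here had an adjusted p under 0.05 by edgeR. RAS deletion in FA gave 3 higher and 1 lower of 20 with ERF wild type, 20% against 17.3% of all genes, and 2 higher and 1 lower with ERF knocked out, 15% against 6.88%.

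Genes whose levels followed Lin28a most closely over the 8 groups were sought among 11195 tested genes with a known symbol and at least 5 CPM in some group. The measure was the root mean square difference between centred group profiles of log2(CPM + 1). The nearest was Myrf, a membrane-bound transcription factor, at 0.39, against a range of 6.20 for the Lin28a profile. Myrf measured 1.36 CPM ± 0.87 (SD, n = 3) in ERF wild type and 8.28 ± 1.24 in ERF knockout cultures with RAS present in 2iL, and 95.4 ± 17.1 (n = 2) and 86.2 ± 4.31 in FA. Next came Dnmt3l, a cofactor of de novo DNA methylation, at 0.78, then Wdr86 at 0.82, the transcription factor Foxp1 at 0.82 and B3gnt7 at 0.82. The order depended on the pseudocount: at 0.1 in place of 1, Wdr86 was nearest at 0.41 and Myrf the third, and these were the 2 of 5 genes in both lists. The profiles share all 23 libraries and nothing is read from the likeness.

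ERF binds ETS motifs, so the promoter entries of the 2 genes that differed most by ERF label are printed. They come from RefSeq on GRCm38.p6 and run from 250 bases before to 50 after the start of the entry. The letters CGGAAG and CCGGAA, sought on both strands, were in neither window. Both windows end short of the annotated 5' ends of the genes, which were not searched. For Lin28a that end is near, at chr4:134019196, but for Lin28b it lies far upstream, at chr10:45486314. Among 32851 promoters of that length 16.855% held CGGAAG and 14.898% held CCGGAA, and these can overlap. Of the members with an entry, Trim71 held CGGAAG at 2 places and Igf2bp2 at 1. The shorter core GGAA was in 95.985% of promoters. No match says only that these letters are absent from this window.
Lin28a (chr4:134018767-134019066, minus strand): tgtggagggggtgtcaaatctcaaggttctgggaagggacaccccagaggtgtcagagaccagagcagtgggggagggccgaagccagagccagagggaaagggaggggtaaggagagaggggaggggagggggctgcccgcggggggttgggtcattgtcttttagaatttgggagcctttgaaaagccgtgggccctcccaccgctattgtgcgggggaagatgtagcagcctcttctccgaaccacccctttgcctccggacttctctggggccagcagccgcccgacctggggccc
Lin28b (chr10:45470152-45470451, minus strand): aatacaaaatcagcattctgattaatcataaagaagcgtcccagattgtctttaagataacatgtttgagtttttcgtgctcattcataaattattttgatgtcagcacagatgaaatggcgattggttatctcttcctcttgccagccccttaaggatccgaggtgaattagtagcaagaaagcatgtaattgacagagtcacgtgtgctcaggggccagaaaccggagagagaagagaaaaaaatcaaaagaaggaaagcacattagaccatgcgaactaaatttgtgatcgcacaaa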

How the data were processed

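Total RNA depleted of ribosomal RNA was read as 75 bp strand-specific pairs, per the labels' protocols. The authors deposited estimated counts (Salmon's NumReads), TPM and lengths per gene, per the file headers, and a matrix of counts for all 23 libraries, which matches those estimates once rounded, with 0 cells different. The submitters' processing notes name bcl2fastq 2.20.0, fastp 0.20.0, Salmon and the build mm10; Salmon's transcriptome is not given in the sources used here. Salmon divides reads among similar transcripts, so near-identical copies are uncertain.

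Genes were tested on the counts with edgeR 4.0.16 (R 4.3.3): filterByExpr, TMM scaling and the robust quasi-likelihood test in 1 model of all 23 libraries, a coefficient per group, with Benjamini-Hochberg adjustment over all 20372 genes tested. The SE is the absolute log2 difference divided by the square root of F. The model was tested on simulated data. The 12 main comparisons each changed 1 factor, and 3 interactions were tested; those of medium by ERF were left out because they hold the contrast that chose the genes. Between any 2 replicates counts differed by more than sampling noise (chi-square per degree of freedom 3.04 to 44.9 over 22 pairs), so each library counted once. A single gene, Gm26917, took 17.6 to 27.9% of each library.

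The 8 genes, the lists and the naming rule were chosen with earlier results of these data known. All 8 genes are named; from each list the called genes of largest change, up to 3 in each direction, of which some are printed; and the genes of nearest group profile, 5 for Lin28a and 1 for each other gene. Same-numbered libraries deviated together (every correlation over 0.1, 3 pairs) in 5 comparisons: the 2 of RAS in 2iL and the medium comparisons other than that of ERF wild type cultures with RAS present. The numbers come from the labels. Alternatives were DESeq2 1.42.0, RLE factors, library sizes without Gm26917, no low-count filter, effective length offsets, only the groups compared, a replicate block, the p-value without a fold minimum, another pseudocount, and leaving out each library. A further 3 were chosen after seeing the data: Hmga1 summed with Hmga1b, leaving out the replicate 1 libraries of the 4 ERF wild type groups, and the libraries of the replicate block fits without the block. Figures were drawn with matplotlib 3.10.9.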

Additional observations from a re-analysis of the deposited data

Results flagged for a closer look

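In 5 results an effect differed between groups by a test of the difference itself (edgeR, adjusted over all 20372 genes). The effect of RAS deletion in FA was 1.87 log2 units more positive with ERF knocked out than with ERF wild type for Lin28a, which was lower in 3 of 3 deleted libraries with ERF wild type and higher in 3 of 3 with ERF knocked out. For Lin28b the same difference was 3.46 log2 units. The response to FA was 2.37 log2 units smaller after RAS deletion with ERF wild type for Lin28b, a difference of -2.37. For Hmga2 it was -1.27 with ERF wild type and -1.01 with ERF knocked out. No test of single outlying libraries was made in these groups of 2 or 3.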

How the results depend on the processing

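The numbers called among the 8 genes were the same with DESeq2, RLE factors, no low-count filter and library sizes without Gm26917. In the list of 19, DESeq2 called as many as edgeR in each of 15 comparisons. In the list of 20 targets it called 4 where edgeR called 5 (FA, ERF knockout, RAS present), 2 where it called 0 (RAS, ERF knockout, 2iL), 3 where it called 2 (ERF, RAS deleted, 2iL) and 5 where it called 2 (medium by RAS, ERF knockout). Effective length offsets moved them from 2 to 1 for FA in ERF wild type, RAS-deleted cultures and from 1 to 2 in ERF knockout, RAS-deleted cultures. Without the fold minimum, FA gave 6 and 6 genes in ERF wild type and 3 and 3 in ERF knockout cultures (Lin28a not counted), RAS deletion in FA 5 and 6, ERF status in RAS-deleted FA cultures 6, RAS by ERF 6, and medium by RAS in ERF knockout cultures 3. Leaving out single libraries gave 1 to 2 calls for FA in ERF wild type, RAS-deleted cultures and in both ERF knockout cultures, and 0 to 1 for medium by RAS in ERF knockout cultures. Such omissions brought further genes past 2-fold: Igf2bp1 for FA in ERF knockout, RAS-deleted cultures (1.02 without 2iL replicate 1, 1.01 without FA replicate 3), Hmga2 for FA in ERF knockout, RAS-present cultures (1.07 without 2iL replicate 3), and Hmga1 for ERF in RAS-deleted FA cultures (1.02) and RAS by ERF (1.05), both without the third ERF wild type library. Without the replicate 1 libraries of the ERF wild type groups, Hmga2 reached 1.01 for FA and 1.04 for RAS by ERF, and Lin28a fell short of a call for RAS deletion in FA at -0.93.

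With the replicate number as a block, calls were 2, 2, 1 and 1 for FA, 0 and 0 for RAS in 2iL, 3 and 0 for RAS in FA, 0 and 2 for ERF in FA, and 3, 3 and 1 for the interactions. The block changed no call past 2-fold in the 5 comparisons where the numbers pair the libraries. These fits hold only the groups compared. Without the fold minimum, RAS in 2iL gave 0 genes with all 23 libraries. The 6 libraries compared gave 0 without the block and 1 with it in ERF wild type cultures, and 2 and 5 with ERF knocked out (Lin28a not counted). Elsewhere the libraries share only a number. Among those comparisons with 3 pairs, every library correlated best with its own number for RAS in FA in ERF knockout cultures, and not for ERF status in 2iL or in RAS-deleted FA cultures. For RAS in FA in ERF knockout cultures the block gave 7 of 8 genes with no fold minimum, against 37.1% of all genes, with Lin28a and Hmga1 past the threshold (adjusted p = 2.0e-05 and 0.0269) and Lin28b not (adjusted p = 0.0811), the same genes as the 6 libraries without it. Fits with the group of 2 libraries hold replicates 1 and 2 only, and the same libraries without the block were fitted after seeing the data. For medium by RAS in ERF wild type cultures, Lin28a was -1.81 with the block and passed (adjusted p = 0.00417), and -1.72 without it, which did not (adjusted p = 0.193). For RAS by ERF, Hmga1 was 1.11 with and without it. Trim71 turned to 0.0061 with the block (RAS, ERF wild type, 2iL), and to -0.055 with it and -0.052 without (RAS, ERF wild type, FA) and to -0.16 and -0.13 (medium by RAS, ERF wild type).

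The other changes of sign were of differences that had passed no test. For ERF in RAS-present FA cultures Hmga1 turned to 0.00057 with length offsets and 0.057 without the replicate 1 libraries. For FA in ERF knockout, RAS-deleted cultures it turned to 0.0021 with no filter and to 0.26 summed with Hmga1b, which passed, and with RAS present to 0.052 summed. Igf2bp2 turned to 0.068 with offsets and 0.12 without the replicate 1 libraries for FA (ERF wild type, RAS present), to 0.11 with offsets for FA (ERF knockout, RAS deleted), and to 0.13, 0.0062 and 0.15 with offsets, no filter and without the replicate 1 libraries for RAS by ERF. With single libraries left out, the ranges for ERF in RAS-present FA cultures were -0.086 to 0.057 for Hmga1, -0.20 to 0.021 for Hmga2 and -0.15 to 0.072 for Igf2bp2. For FA in ERF knockout, RAS-deleted cultures they were -0.085 to 0.041, -0.20 to 0.073 and -0.11 to 0.033 in the same order. Igf2bp2 also ranged from -0.14 to 0.083 (FA, ERF wild type, RAS present), from -0.15 to 0.085 (RAS by ERF) and from -0.031 to 0.11 (RAS, ERF wild type, 2iL). Trim71 ranged from -0.18 to 0.094 (RAS, ERF wild type, 2iL), from -0.075 to 0.15 (RAS, ERF wild type, FA), from -0.063 to 0.22 (medium by RAS, ERF wild type; 0.32 without the replicate 1 libraries) and from -0.0068 to 0.12 (FA, ERF knockout, RAS present). Igf2bp3 ranged from -0.14 to 0.013 (medium by RAS, ERF wild type) and Lin28a from -0.55 to 0.024 (RAS, ERF wild type, 2iL). The cause was not tested. Where 1 library was left in a group, it was assumed to vary like the others. Lin28b had 30 to 77 counts a library in ERF wild type 2iL cultures, which limits its precision there.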

Other observations

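Each of the other 7 genes also had a nearest group profile among the 11195 candidates, by the root mean square difference of centred log2(CPM + 1) means over the 8 groups. Lin28b was nearest to Rragb, a GTPase of the amino acid sensing pathway, at 0.27, which measured 1.35 CPM ± 0.43 (SD, n = 3) in ERF wild type and 8.89 ± 0.96 (n = 3) in ERF knockout cultures with RAS present in 2iL. Hmga2 was nearest to Insr, the insulin receptor and itself on the list of let-7 targets, at 0.11. Trim71 was nearest to Nfat5 at 0.05, Hmga1 to Usp35 at 0.09, Igf2bp1 to Zfp687 at 0.08, Igf2bp2 to Epb41l5 at 0.09 and Igf2bp3 to Gpatch8 at 0.06. All 7 names were the same at a pseudocount of 0.1. The profiles share all libraries, and no test was made of the likeness.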
